A study of Mus musculus with 78 samples.

Results

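BLOC-1 is an octameric complex on endosomes, and its subunits are encoded by Snapin, Bloc1s1, Bloc1s2, Bloc1s3, Bloc1s4, Bloc1s5, Bloc1s6 and Dtnbp1. These 8 genes, of 55401 in each count table, were chosen by complex membership and by what was already known of Snapin, which lost most of its RNA when the transcription factor ZFP143 was removed and carries a ZFP143 peak at its promoter. Snapin is therefore described here without a test wherever ZFP143 depletion is compared with its control, and the ZFP143 peaks, which the choice also used, are given as a description. The other 7 genes were tested in every contrast, with p-values adjusted over all genes of the table.

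The libraries came from mouse embryonic stem cells of the E14TG2a line (129/Ola), in which both Zfp143 alleles carried an FKBP-2xHA-P2A-GFP cassette before the stop codon. The cassette lets dTAG-V1, a degrader that bridges FKBP to the VHL ubiquitin ligase, remove ZFP143 protein. All groups shared this genotype, the tagged cells were homozygous clones raised from sorted single cells, of a number not given in the sources used here, and no untagged or second line was sequenced in the tables used here. Transient transcriptome sequencing (TT-seq), which pulls down RNA labeled with 2 mM 4-thiouridine for 10 min and so reports RNA made in that interval, compared DMSO with dTAG-V1 (500 nM) given for 2 h, 6 h or 24 h. Poly(A) RNA-seq compared DMSO with dTAG-V1 for 24, 48 and 72 h, in medium with LIF and MEK and GSK3 inhibitors. In both experiments the same DMSO group, with no time in its label, served all times. Length of depletion and time in culture therefore cannot be told apart in them. A further RNA-seq experiment took cells after 24 h of DMSO or dTAG-V1, and after another 24 h in differentiation medium with retinoic acid (RA) while DMSO or dTAG-V1 was kept, so that the latter cells had 48 h of treatment. No library had the new medium without RA, so RA and the change of medium cannot be told apart. Each of the 4 groups in each of the 3 experiments had 2 replicates, 24 libraries in all, with total counts of 9721568 to 16532077 in TT-seq, 10261851 to 15316700 in RNA-seq and 13890761 to 27089033 in the RA experiment. These tables sum over all cells of a library, so fewer cells of a kind and less RNA per cell cannot be told apart.

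Endosomes sort membrane proteins toward lysosomes and toward lysosome-related organelles such as melanosomes, and BLOC-1 acts in the second route, where it shapes tubules that carry cargo away from early endosomes. Loss of several of its subunits causes Hermansky-Pudlak syndrome or the matching coat-color mutants of mice. Snapin, Bloc1s1 and Bloc1s2 also serve in BORC, a second octamer that recruits the small GTPase ARL8 and kinesins to lysosomes and moves them outward along microtubules. Snapin was first described as a binding partner of the SNARE protein SNAP-25. Levels below are in CPM, counts divided by the size of the library, after TMM scaling, which corrects for differences in RNA composition, and changes are log2 ratios with an approximate standard error (SE) from the edgeR fit.

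Of the 8 genes, 1 was bound at its promoter, beside 9.89% of 21951 protein-coding genes and 16% of those tested in RNA-seq, so the count is near the background. A ZFP143 peak counted as at a promoter when it overlapped the region from 2000 bp upstream to 1000 bp downstream of a transcript start and its centre lay within 2000 bp of that start. Snapin lies on the minus strand of mm10 at chr3:90488026-90491033. Its peak, chr3:90490730-90491332, spans 603 bp over the transcript start and first exon, with the summit at position −14 from the start at 90491033. The peak was 101-fold enriched over input with a −log10 q of 343, and its enrichment was above that of 96.3% of the 3189 ZFP143 peaks, whose median was 20.8-fold and whose range was 3.64- to 345-fold. No other gene used this peak as a promoter peak. Keeping only peaks with a −log10 q of at least 10, or only those within 500 bp of a start, again left 1 of 8 genes bound.

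The 7 other genes lay outside the promoter distance. Bloc1s2 (chr19:44139246-44146446) was the nearest to passing, with a 6.54-fold peak centred 6820 bp from a start. Bloc1s1 (chr10:128917882-128924035) had a 5.54-fold peak at 22250 bp, which was the promoter peak of Cd63. For Bloc1s3 (chr7:19504486-19508367), Bloc1s4 (chr5:36747378-36748650) and Bloc1s6 (chr2:122738503-122749475) the nearest peaks lay 78558, 82762 and 107858 bp away. For Dtnbp1 (chr13:44922075-45002147) and Bloc1s5 (chr13:38592842-38635109) these distances were 216363 and 430130 bp. CTCF, the architectural zinc finger protein, had 22314 peaks in these cells. A CTCF peak of 682 bp shared 449 bp with the Snapin ZFP143 peak, with its centre 192 bp from the start, and Snapin was again the only one of the 8 genes with such a promoter peak. Over the genome, 221 of 3189 ZFP143 peaks (6.93%) overlapped a CTCF peak.

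The 200 bases upstream of the Snapin start (mm10 chr3:90491034-90491233, minus strand) are printed because this promoter carried the binding, with capitals over the 31 bases, positions −71 to −41, that scored best against a matrix built from ZFP143 peaks.
Snapin promoter: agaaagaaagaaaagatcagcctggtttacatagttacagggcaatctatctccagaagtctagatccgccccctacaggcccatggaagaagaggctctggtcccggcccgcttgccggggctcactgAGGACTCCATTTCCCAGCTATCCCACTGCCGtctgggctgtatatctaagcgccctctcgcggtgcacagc

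ZFP143 is known to bind a long site with a CCCAGNATG core, often preceded by ACTACAA. The 27 bases of the best match follow, with the core positions in capitals. They are given for Snapin, 2 unbound members and 4 bound genes of the wider pathway. These genes are a selection, so the lines do not show how bound and unbound promoters differ in general.
Snapin: gactccatttCCCAGCTATcccactgc
Bloc1s2: ttatcaaagtCCAAGCATGaagctgaa
Bloc1s5: tctgccctcaTCCAGCATGgccgcatc
Borcs7: gcctacactcCCCAGGATGcaatgcgc
Vti1b: aactacaattCCCAGTATGcactgcag
Lamtor2: aactatggttCCCAGAATTccttgagc
Kxd1: gccccgagccCCCACAATGccccgcgc
In mm10 these sites lie at chr3:90491076-90491102 (minus strand) for Snapin, chr19:44146548-44146574 (plus) for Bloc1s2, chr13:38635173-38635199 (minus) for Bloc1s5, chr19:46690148-46690174 (minus) for Borcs7, chr12:79172702-79172728 (minus) for Vti1b, chr3:88553062-88553088 (minus) for Lamtor2 and chr8:70527964-70527990 (minus) for Kxd1. The first 3 lie upstream of a member's start, and the last 4 lie under ZFP143 promoter peaks.

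None of the 8 promoter windows of 300 bp held CCCAGNATG or ACTACAA on either strand, and none held the looser CCCANNATG. The core was in 15.3% of 300 bp windows at ZFP143 summits and in 2.07% of 21853 protein-coding promoters, ACTACAA in 19.3% and 3.72%, and CCCANNATG, which includes every core, in 25.7% and 4.77%. The paper, with motif matrices in place of exact letters, found ZFP143 sites in most of its peaks. These letter counts therefore miss many sites. The Snapin site, whose centre lay at position −56, scored −0.03 on the matrix, above 72.7% of 32851 RefSeq promoters but above only 14.9% of ZFP143 peaks. The best-scoring other member was Bloc1s2 at 2.69, above 84.5% of promoters. Among bound list genes, the best sites under the peaks of Borcs5 and Tgfbrap1 scored 0.15 and 2.98. Those of all other bound list genes scored higher, from 4.75 for Cd63 upward. Borcs7 and Vti1b hold the core, and their sites were among those the matrix was built from, so their scores are not set beside that of Snapin. Letters at a promoter do not show binding, and their absence says nothing about the factor.

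Snapin was the most abundant of the 8 RNAs per length in untreated cells. In DMSO libraries of RNA-seq, its level was 22.9 ± 1.2 CPM per kb of exon (SD, n = 2), followed by Bloc1s2 at 13.6, Bloc1s4 at 9.65, Bloc1s6 at 5.81, Dtnbp1 at 4.70, Bloc1s3 at 4.53, Bloc1s5 at 1.71 and Bloc1s1 at 0.569. The replicates of Dtnbp1 and Bloc1s3 overlapped, and every other pair of neighbors in this order was separate. In the RA experiment Snapin again came first, at 24.1 ± 1.1 CPM per kb, with Bloc1s2 at 13.9 and Bloc1s4 at 11.6 behind it. In TT-seq, per kb of whole gene, Snapin stood at 5.32 ± 0.33, Bloc1s2 at 3.73, Bloc1s4 at 3.21, Bloc1s1 at 2.39 and Bloc1s3 at 1.37. Bloc1s6, Dtnbp1 and Bloc1s5 followed at 0.847, 0.829 and 0.733, with replicates of neighbors overlapping. Bloc1s1 ranked above Bloc1s3, Bloc1s5, Bloc1s6 and Dtnbp1 in TT-seq and last in poly(A) RNA. It shares 5007 of its 6154 bp with Rdh5 on the same strand, and TT-seq reads in such overlaps were counted for both genes. RNA-seq was counted by another program, whose handling of such reads is not given in the sources used here. Its RNA-seq counts were low, from 6 to 15 reads a library, so its last rank there is not read as its level. Among subunits that belong to BORC alone, Kxd1 reached 10.1, 19.9 and 24.7 CPM per kb in the 3 experiments and Borcs8 reached 2.95, 14.6 and 19.1.

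**Figure D1:**
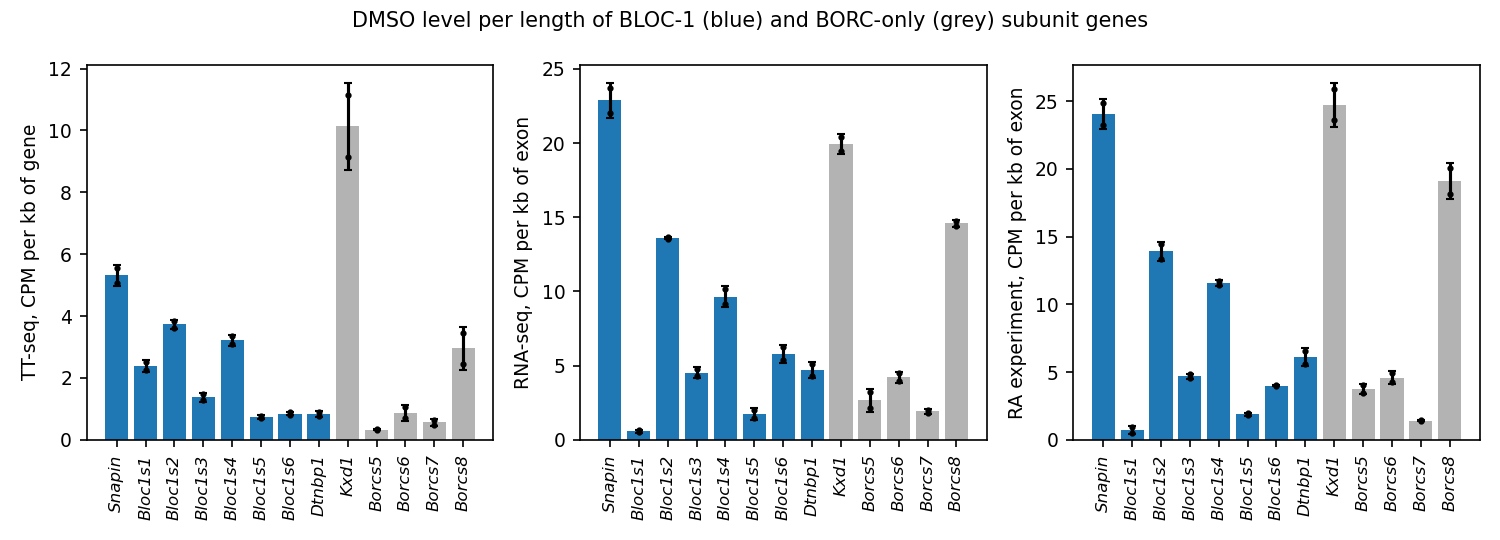
Level of each BLOC-1 gene (blue) and each BORC-only gene (grey) in the DMSO libraries of each experiment, in CPM per kb of gene (TT-seq) or per kb of exon (RNA-seq). Bars show the mean of 2 libraries, points each library and error bars the SD; among the blue bars Snapin is the highest in every panel.

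After ZFP143 depletion, new Snapin RNA was low by 2 h and stayed low. In TT-seq, Snapin had 148 and 220 reads in the DMSO libraries, 38 and 30 after 2 h, 51 and 40 after 6 h, then 31 and 15 after 24 h. Scaled to CPM, the controls stood at 15.3 and 16.7, the 2 h libraries at 3.05 and 1.80, those of 6 h at 3.98 and 3.26, and those of 24 h at 3.05 and 1.13. All 6 depleted libraries lay below both controls, and the 2 h and 24 h groups overlapped, with both 6 h libraries above them. The log2 change was −2.74 ± 0.42 at 2 h, −2.14 ± 0.40 at 6 h and −2.97 ± 0.43 at 24 h, or 6.67-, 4.41- and 7.85-fold lower. The 24 h value moved to −3.80 without the first dTAG library of that time and to −2.38 without the second. The 3 changes use the same DMSO libraries.

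Mature Snapin RNA was lower at each later time. It stood at 54.3 and 50.5 CPM in the controls, 4.75 and 4.55 after 24 h, 3.19 and 3.02 after 48 h, then 1.57 and 1.97 after 72 h. The groups did not overlap, and each later time lay below the one before. The changes from DMSO were −3.49 ± 0.12, −4.07 ± 0.13 and −4.85 ± 0.14 on the log2 scale, that is 11.2-, 16.8- and 28.9-fold lower. At 72 h, 17 and 29 reads remained, against 593 and 710 in DMSO. The changes at all times use the same DMSO libraries, so length of depletion and time in culture cannot be told apart. In the RA experiment the 24 h depletion was repeated in separate libraries: 53.3 and 56.9 CPM in DMSO against 3.58 and 4.97 with dTAG, a change of −3.66 ± 0.13.

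**Figure D2:**
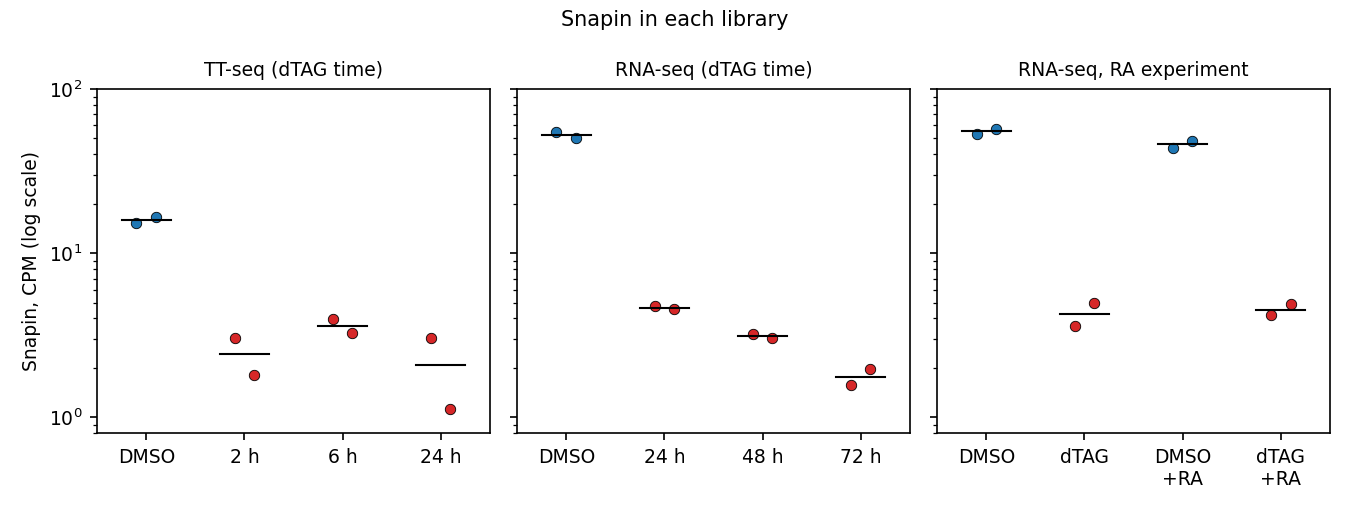
Snapin in each library (points, CPM on a log scale) of TT-seq, RNA-seq and the RA experiment, with DMSO in blue, dTAG-V1 in red and group means as bars. The DMSO libraries lie between 15.3 and 16.7 CPM in TT-seq and between 43.8 and 56.9 CPM in the other panels, and every depleted library lies below 5 CPM.

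The make-up of the complex at the RNA level differed accordingly. Snapin supplied 36.9% and 35.2% of the summed CPM per kb of the 8 genes in the DMSO libraries of RNA-seq and ranked first. The sum includes Bloc1s1, which had 9 reads in each of these libraries and overlaps Rdh5, so the shares are approximate. The depleted libraries gave 4.37% and 4.31% (24 h), 2.18% and 2.08% (48 h), then 1.15% and 1.47% (72 h), where Snapin ranked last. That rank was not separate, with Snapin at 0.685 and 0.862 CPM per kb and Bloc1s1 at 1.07 and 0.634. In TT-seq the shares were 27.7% and 30.0% in DMSO and 7.56% and 3.15% at 24 h. No protein was measured for these genes in the tables used here.

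Zfp143 itself rose in every comparison. Its RNA went from 71.2 and 74.2 CPM in the DMSO libraries of TT-seq to 164 and 164 at 2 h, and from 42.9 and 44.2 CPM in RNA-seq to 111 and 105 at 72 h, with all depleted libraries above all controls. The log2 changes were 1.17, 1.15 and 1.18 in TT-seq, 1.09, 1.11 and 1.30 in RNA-seq, and 1.36 before and 1.38 after RA, all called higher. The degrader acts on the protein, so this RNA does not check the depletion. Ilf2, which shares 354 bp with Snapin on the opposite strand, was called in no contrast, with changes between −0.35 and 0.16.

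None of the 7 other genes was called at any time of TT-seq. A gene was called there when edgeR's quasi-likelihood test gave an adjusted p under 0.05 and the log2 change exceeded 0.5 in size. At 2 h, 2.37% of 17870 genes were called lower and 0.168% higher. At 6 h the shares were 2.92% and 0.386%, and at 24 h 4.25% and 2.01%. A replicate block raised all of these shares, those called lower to 3.68%, 5.46% and 6.89% at the 3 times. The shares called lower were smaller when a library of the contrast was left out. Of the 7 genes, 0, 0 and 1 had an unadjusted p under 0.05 at the 3 times, and DESeq2 called 0 at each. Their changes ran from −0.52 (Bloc1s4) to 0.23 (Dtnbp1) at 2 h, from −0.40 (Bloc1s2) to 0.33 (Dtnbp1) at 6 h, and from −0.57 (Bloc1s3) to 0.29 (Dtnbp1) at 24 h. Their medians of −0.13, −0.26 and −0.06 stood beside medians of 0.01, 0.005 and 0.003 over all genes. Bloc1s3 and Bloc1s4 had only 28 to 66 reads a library.

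In RNA-seq, Bloc1s2 rose at 48 h and Bloc1s6 at 48 and 72 h, and none of the 7 was called lower. A gene was called in RNA-seq when its change exceeded 1.5-fold at an adjusted p under 0.01 (edgeR glmTreat). At 24 h, 0 of 7 were called, 0 had an unadjusted p under 0.05 and DESeq2 called 0, where 3.41% of 13925 genes were called lower and 2.32% higher. At 48 h, 2 of 7 were called higher and 0 lower, against 10.5% and 7.71% of all genes. At 72 h, 1 of 7 was called higher and 0 lower, against 13.7% and 12% of all genes. With so few genes, these counts are not set apart from the background. The medians of the 7 were 0.19, 0.28 and 0.55, and those of all genes 0.02, 0.01 and 0.02. Cell state moved with these times. The 8 stem cell markers, all above 10 reads in each group, summed to 6506 to 6710 CPM in DMSO and 4207 to 4256 CPM at 72 h. Of 5 primitive endoderm markers, 1 was above 10 reads in DMSO (sum 6.14 to 6.54 CPM) and 5 were at 72 h (14.8 to 15.2 CPM). Of 4 trophoblast markers, 1 was above 10 reads in both groups, with Cdx2 at 0, and the sum went from 8.71 to 8.96 CPM in DMSO to 16.1 to 16.8 CPM at 72 h. Of 5 RA response markers, 0 were above 10 reads in DMSO (0.427 to 0.642 CPM) and 1 was at 72 h (5.54 to 6.40 CPM). The part of these markers in the changes of Bloc1s2 and Bloc1s6 was not tested.

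Bloc1s2 is a coiled-coil subunit common to BLOC-1 and BORC. It measured 24.2 and 24.4 CPM in the controls, 33.9 and 29.1 after 24 h, 54.2 and 55.4 after 48 h, then 42.2 and 41.3 after 72 h. All depleted libraries lay above the controls, and the 48 h libraries were the highest. The change was 1.17 ± 0.08 at 48 h (edgeR glmTreat, adjusted p = 9.9e-08), and it stayed called in all alternatives run. At 72 h it was 0.78 ± 0.08 with an adjusted p of 0.013 in the same edgeR test, short of the threshold, and it passed when libraries were scaled by size alone. In TT-seq, by contrast, the controls stood at 26.0 and 27.7 CPM, the 2 h libraries at 19.4 and 24.9, those of 6 h at 17.5 and 23.1, and those of 24 h at 25.9 and 26.1. None of these changes was called, and the 2 h and 6 h libraries lay below the controls.

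Bloc1s6 encodes pallidin, the subunit mutated in the pallid mouse and a binding partner of syntaxin 13. It measured 21.0 and 24.3 CPM in the controls, 26.4 and 25.5 after 24 h, 40.7 and 40.4 after 48 h, then 46.2 and 44.5 after 72 h. The depleted groups lay above the controls at each time, by little at 24 h. The change was 0.99 ± 0.08 at 72 h (edgeR glmTreat, adjusted p = 2.3e-05). At 48 h it was 0.83 ± 0.09 (edgeR glmTreat, adjusted p = 0.0049), a call that was lost with DESeq2 (0.83), with no filter on low counts (0.79), and without the first DMSO library (0.74) or either of the dTAG libraries of that time (0.83 and 0.84). In TT-seq its changes were 0.17, 0.17 and 0.26, none called.

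The remaining members passed no test of depletion. Dtnbp1 encodes dysbindin, the subunit mutated in the sandy mouse. It measured 19.0 and 16.1 CPM in DMSO and 25.9 and 25.7 at 72 h, with the 72 h libraries above both controls and a change of 0.57 ± 0.10 (edgeR glmTreat, adjusted p = 0.66). Bloc1s5, the gene mutated in the muted mouse, ranged from 9.24 to 14.0 CPM over all RNA-seq libraries, and Bloc1s3, the gene of reduced pigmentation, from 13.3 to 15.2 CPM. Bloc1s4, the gene of the cappuccino mouse, ranged from 9.02 to 12.9 CPM. The depleted libraries of Bloc1s3 and Bloc1s5 overlapped or touched the range of the controls at each time, while those of Bloc1s4 lay below both controls at 24 and 48 h without passing the test (−0.35 and −0.23). For Bloc1s1 the SE of 0.47 to 0.52 at these times was larger than that of any other member, so its changes of 0.56, −0.01 and 0.55 carry little information. Antisense genes overlap Bloc1s4 by 33 bp and Bloc1s5 by 139 bp.

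**Figure D3:**
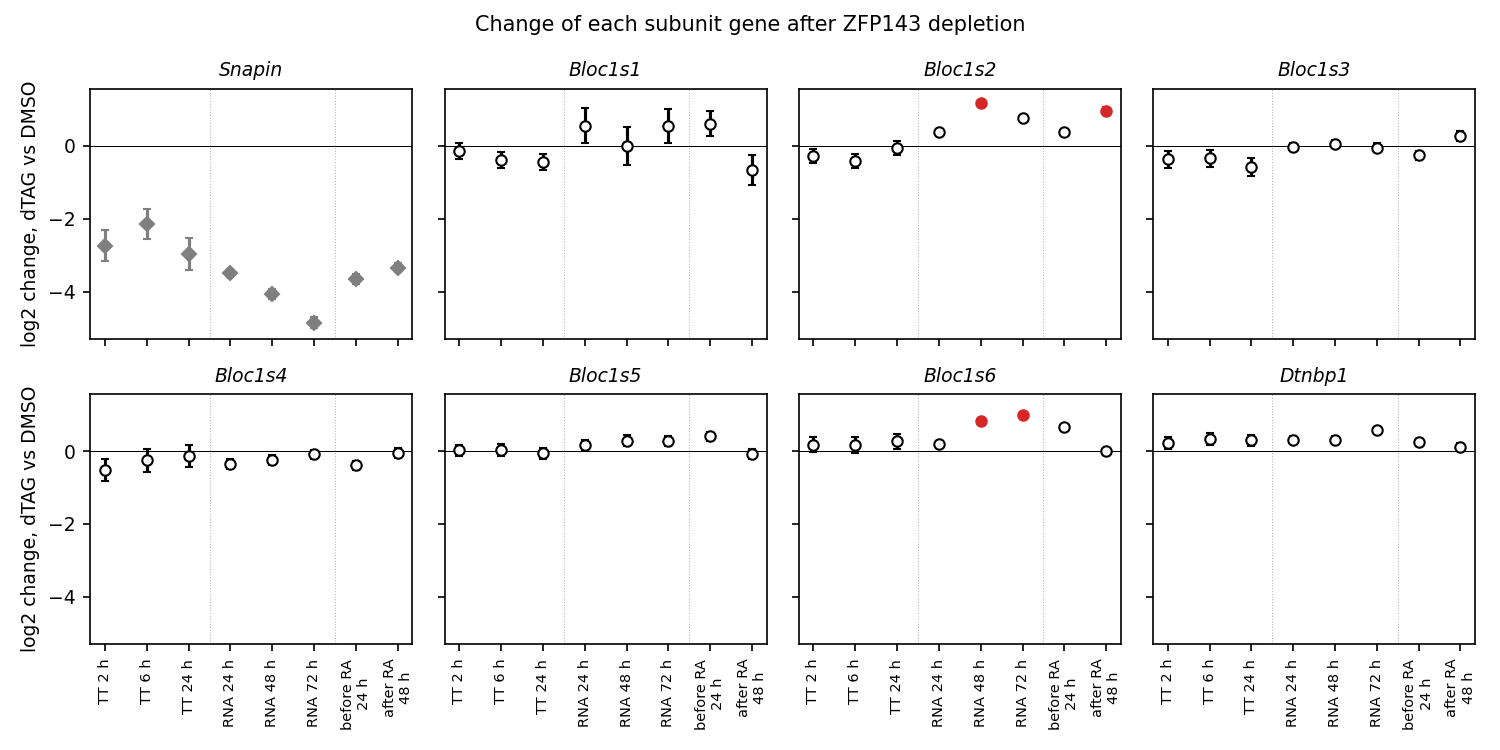
Log2 change from DMSO to dTAG-V1 of each BLOC-1 gene in the 8 comparisons of depletion, with the SE as error bars. Filled red points were called and open points were not; Snapin (grey diamonds) is shown without a test and lies between −2.14 and −4.85, while the called points are Bloc1s2 at 1.17 and 0.97 and Bloc1s6 at 0.83 and 0.99.

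The scaling of the libraries bears on how many genes rise or fall. With library size alone in place of TMM, the share of calls that were higher went from 40.5% to 56.2% at 24 h, from 57.6% to 74.5% at 48 h and from 53.3% to 71.1% at 72 h of RNA-seq. In the RA experiment it went from 42.8% to 56.4% before RA, from 55.3% to 73.2% after RA, from 58.8% to 75.1% for the RA effect in DMSO and from 57.5% to 78.1% for that in dTAG. The median of all genes moved from 0.02, 0.01 and 0.02 to 0.15, 0.21 and 0.23 in RNA-seq, and from 0.06, 0.003, 0.03 and 0.002 to 0.20, 0.21, 0.35 and 0.39 in the RA experiment. Beside these shifted medians, Bloc1s2 at 48 h stood at 1.37 and Bloc1s6 at 72 h at 1.21. No called value of the members changed sign. Small values that were not called did so for several members, among them Bloc1s4 at 72 h (−0.09 to 0.13) and after RA (−0.06 to 0.15), Dtnbp1 for the RA effect in DMSO (−0.03 to 0.29) and Bloc1s3 for that under dTAG (−0.20 to 0.19).

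The RA experiment asked how these genes behave when the cells leave pluripotency with or without ZFP143. The summed level of 5 RA response markers rose from 3.55 to 3.56 CPM in DMSO to 557 to 653 CPM with RA, and from 6.95 to 7.20 CPM to 255 to 280 CPM under dTAG. The stem cell markers went from 7073 to 7214 CPM to 1363 to 1944 CPM in DMSO. Snapin measured 53.3 and 56.9 CPM before and 43.8 and 48.5 CPM after in DMSO, and 3.58 and 4.97 CPM before and 4.17 and 4.88 CPM after under dTAG. The DMSO groups were separate and the dTAG groups overlapped. The RA effect was −0.26 ± 0.10 in DMSO and 0.06 ± 0.17 under dTAG, neither called (edgeR glmTreat, adjusted p = 1.0 for both), and the value in DMSO was 0.06 with size scaling. The depletion change of Snapin was −3.34 ± 0.13 after RA, or 10.1-fold lower, beside −3.66 ± 0.13 before.

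Among the 7 others, before RA none was called for depletion, against 3.66% of 15915 genes lower and 2.74% higher, 0 had an unadjusted p under 0.05 and DESeq2 called 0. After RA, 1 of 7 was called higher and 0 lower, against 9.1% and 7.36% of genes. The RA effect itself was called lower for 1 and higher for 1 of 7 in DMSO, against 18.1% and 25.8% of genes, and for 0 of 7 under dTAG, against 18.5% and 25%, where 1 had an unadjusted p under 0.05 and DESeq2 called 0. The interaction compares the step from before to after RA between dTAG and DMSO. Over that step the medium changed and depletion went from 24 h to 48 h, so RA, medium and length of depletion cannot be told apart in it. It was called lower for 1 and higher for 2 of 7, against 18% and 13.7% of genes. Called shares near these backgrounds say nothing particular about the complex.

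Bloc1s2 had a positive interaction. It measured 25.8 and 23.9 CPM in DMSO, 32.1 and 32.2 in dTAG, 24.5 and 25.5 in DMSO with RA, and 52.4 and 45.1 in dTAG with RA. The DMSO groups overlapped, and the dTAG with RA libraries were above all others. Depletion raised it by 0.97 ± 0.10 after RA (edgeR glmTreat, adjusted p = 0.00057), a call lost without the first dTAG with RA library (0.89). Before RA the change was 0.37 ± 0.10 and not called. The interaction was 0.60 ± 0.14 (edgeR quasi-likelihood test, adjusted p = 0.0015). Without RA, its depletion change in RNA-seq was 0.38 at 24 h and 1.17 at 48 h.

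Bloc1s6 had an interaction of the opposite sign. It measured 15.5 and 15.7 CPM in DMSO, 24.4 and 24.5 in dTAG, 34.7 and 37.5 in DMSO with RA, and 35.1 and 36.5 in dTAG with RA. RA raised it by 1.21 ± 0.10 in DMSO (edgeR glmTreat, adjusted p = 1.1e-06). Under dTAG the RA effect was 0.55 ± 0.09 and not called, and the RA-treated libraries of both treatments overlapped. Its depletion change was 0.65 ± 0.10 before and −0.01 ± 0.09 after RA, neither called. The interaction was −0.66 ± 0.14 (edgeR quasi-likelihood test, adjusted p = 0.00053). Without RA, its depletion change in RNA-seq was 0.19 at 24 h and 0.83 at 48 h.

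Bloc1s4 was lower with RA in DMSO, and Bloc1s3 had a called interaction. Bloc1s4 went from 14.9 and 14.5 CPM in DMSO to 7.85 and 7.29 with RA, with no overlap, and from 11.4 and 11.2 to 7.47 and 7.11 under dTAG. Its RA effect in DMSO was −0.95 ± 0.13 (edgeR glmTreat, adjusted p = 0.0032). That call was lost with DESeq2 (−0.97), with size scaling (−0.64), and without the first DMSO library (−0.94) or either DMSO with RA library (−0.96 and −0.85). Bloc1s3 went from 14.5 and 15.4 CPM to 9.13 and 8.85 in DMSO and from 12.4 and 12.5 to 11.1 and 10.6 under dTAG, again without overlap. Its RA effects of −0.73 in DMSO and −0.20 under dTAG were not called, while its interaction of 0.53 ± 0.18 was (edgeR quasi-likelihood test, adjusted p = 0.019). The latter call was lost with no filter on low counts (0.48), without the second DMSO library (0.49) and without either dTAG library (0.52 and 0.53).

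Dtnbp1 ranged from 20.9 to 27.5 CPM over the RA experiment, with no called value. Bloc1s5 had an interaction of −0.47 ± 0.19 (edgeR quasi-likelihood test, adjusted p = 0.046), under the size required. It passed with no filter on low counts (−0.53) and without the first DMSO with RA library (−0.65). Bloc1s1, at 9 to 34 reads a library, had an interaction of −1.29 ± 0.54 (edgeR quasi-likelihood test, adjusted p = 0.059). It passed with no filter (−1.34), without the first DMSO library (−1.76) and without the second dTAG with RA library (−1.78).

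**Figure D4:**
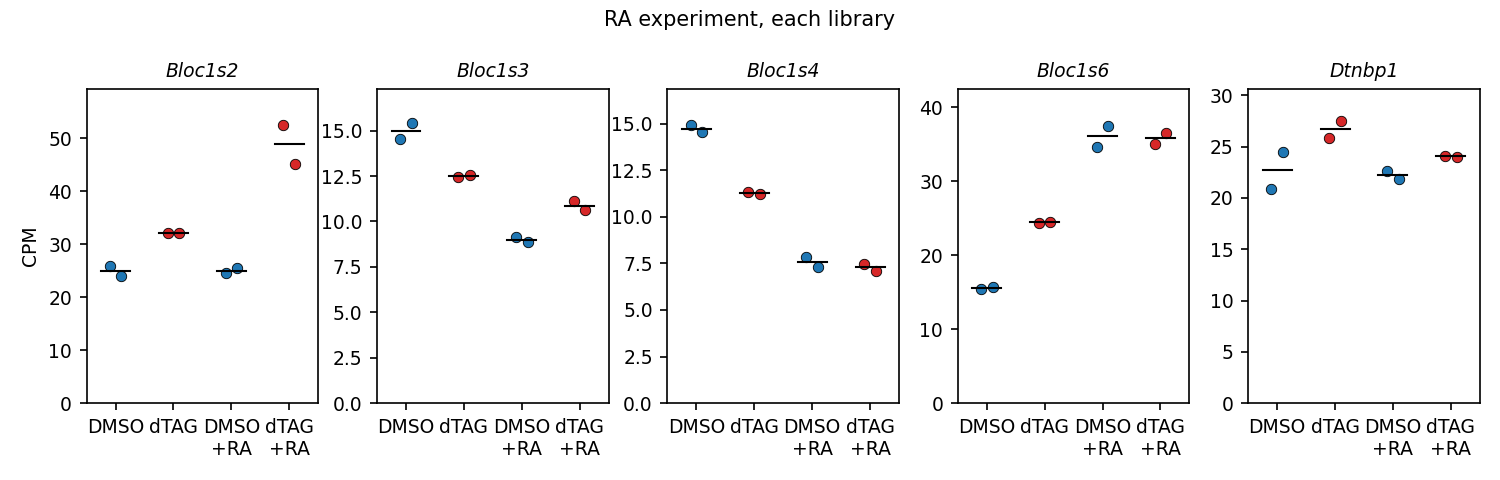
CPM of 5 members in each library of the RA experiment, with DMSO in blue, dTAG-V1 in red and group means as bars. Bloc1s2 is highest in dTAG with RA (45.1 and 52.4 CPM), Bloc1s6 reaches 34.7 to 37.5 CPM with RA in both treatments, and Bloc1s4 lies at 7.11 to 7.85 CPM with RA.

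Of the 5 genes that belong to BORC alone, 3 had ZFP143 promoter peaks, beside 16% of the protein-coding genes tested in RNA-seq: Kxd1 (36.4-fold), Borcs5 (12.5-fold) and Borcs7 (76.2-fold). With 5 genes, nothing particular to the list is read from this count. Kxd1, a coiled-coil subunit, measured 219 and 180 CPM in the DMSO libraries of TT-seq, 166 and 162 after 2 h, 135 and 129 after 6 h, then 144 and 133 after 24 h, with every depleted library below both controls. It fell by 0.59 at 6 h and 0.53 at 24 h on the log2 scale (edgeR quasi-likelihood test, adjusted p = 0.044 and 0.047) and was called in no RNA-seq contrast. Borcs7, another subunit, measured 4.40 and 3.91 CPM in the DMSO libraries of RNA-seq and 8.62 and 9.68 at 48 h. It rose by 1.14 ± 0.18 at 48 h (edgeR glmTreat, adjusted p = 0.0027), by 1.52 ± 0.19 before RA (adjusted p = 0.00019 in the same test) and by 1.05 ± 0.16 after RA (adjusted p = 0.0049). Its changes of 1.11 at 24 h and 0.47 at 72 h of RNA-seq were not called. DESeq2 called no BORC-only gene at 48 h or after RA. Borcs5 and Borcs6 were called in no contrast, and Borcs8 was lower with RA, by −1.20 in DMSO and −1.59 under dTAG.

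Downstream of BORC, 8 genes of the ARL8 and kinesin arm were followed. Klc2, a kinesin light chain, was the 1 gene of this list with a promoter peak (35.1-fold). It measured 10.2 and 6.91 CPM in the DMSO libraries of TT-seq against 2.09 and 1.68 at 2 h, and 31.9 and 35.1 CPM in those of RNA-seq against 10.2 and 10.1 at 72 h. No depleted library of these 2 experiments reached a control. It was called lower in 7 of the 8 comparisons of depletion, with changes of −2.18, −2.49 and −2.09 in TT-seq, −1.84, −1.68 and −1.73 in RNA-seq and −2.46 before RA. After RA the change was −0.66 and not called, with an interaction of 1.80 ± 0.16 (edgeR quasi-likelihood test, adjusted p = 1.9e-08). Kif1a, a kinesin of neurons, rose from 0.367 and 0.711 CPM in the DMSO libraries of RNA-seq to 10.2 and 12.2 at 72 h, a change of 4.32 ± 0.28, and by 5.25 with RA in DMSO. The DMSO values of RNA-seq rest on 4 and 10 reads. Kif1a therefore passed the filter on low counts there only through depleted libraries, and its change is a description.

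The wider route held further bound genes. Vps41, a HOPS tethering subunit with a 43.1-fold peak, was lower in the same 7 comparisons, from −0.61 to −1.42. Lamtor2, a Ragulator scaffold subunit with the strongest peak of these lists (109-fold), was called lower in all 3 times of RNA-seq (−1.38, −1.54 and −1.87) and before and after RA (−1.21 and −0.91, the latter not called by DESeq2), but in no TT-seq contrast, where it had 41 to 90 reads a library. Vti1b, an endosomal SNARE with a 71.3-fold peak, was lower in TT-seq at 2 and 6 h (−1.25 and −1.12) and before and after RA (−1.08 and −0.92, the latter not called by DESeq2). It was not called at 24 h of TT-seq (−0.29) or at the 3 times of RNA-seq (−0.73, −0.31 and −0.12). Rab29, of the RAB32 family and with a 55.4-fold peak, was lower at all 3 times of RNA-seq (−1.86, −1.88 and −2.70) and before RA (−1.18, not called by DESeq2). Tgfbrap1, a CORVET subunit with a 73.1-fold peak, was called lower in none of these 8 comparisons. The lists of AP-3 (7 genes), BLOC-2 and BLOC-3 (5 genes), which act with BLOC-1 in sorting, had 0 and 1 bound genes. Calls for depletion in these lists over RNA-seq and the RA experiment were Ap3b2, the neuronal AP-3 subunit (−1.13 at 48 h, −1.31 at 72 h and −1.45 after RA), Ap3m2 (1.18 before RA) and Hps5 (0.79 at 72 h, not called by DESeq2).

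At 72 h of RNA-seq, the lists read as follows beside the all-gene median of 0.02, with 12% of all genes called lower and 13.7% higher. The BORC-only list had 0 of 5 genes called (median −0.16, 0 with an unadjusted p under 0.05 and 0 by DESeq2). The ARL8 and kinesin arm had 1 lower and 1 higher of 8 (0.45), AP-3 had 1 lower of 7 (−0.11), and BLOC-2 with BLOC-3 had 1 higher of 5 (0.14). The higher gene of the kinesin arm was Kif1a, which passed the filter only through depleted libraries, so that call is not read beside the background. HOPS and CORVET had 1 lower of 8 (0.34), Ragulator 1 lower of 5 (−0.08), and the RAB32 family 1 lower (Rab29) and 1 higher (Rab32) of 3 (0.34). Of the 10 SNARE partner symbols listed, 8 were found in the annotation and 7 passed the filter on low counts. Of these, 0 were called (0.06, 0 with an unadjusted p under 0.05 and 0 by DESeq2).

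**Figure D5:**
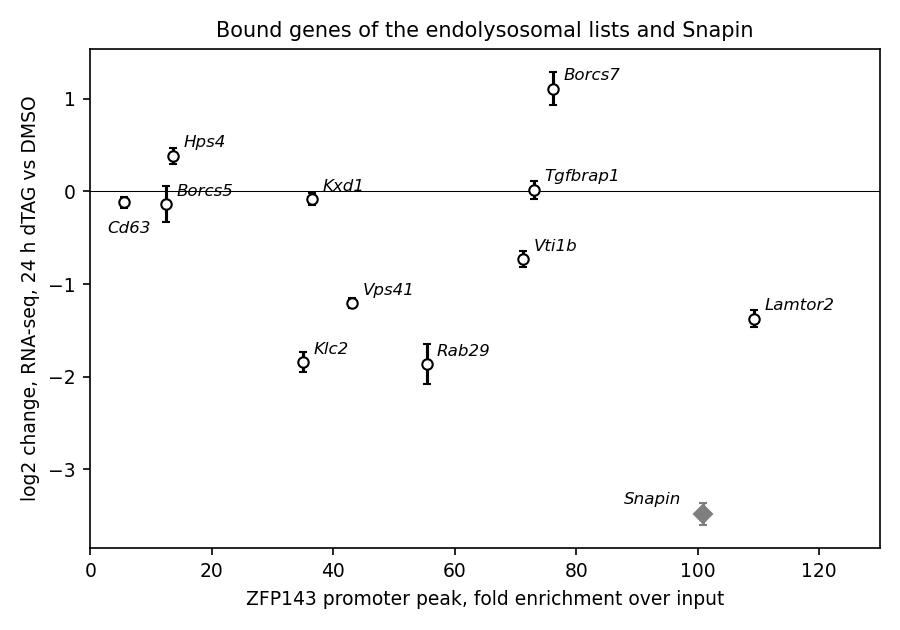
ZFP143 promoter peak enrichment over input against the log2 change in RNA-seq after 24 h of dTAG-V1 for the bound genes of the lists that were tested (open circles) and Snapin (grey diamond, no test), with the SE as error bars. Snapin lies lowest, at −3.49 with a 101-fold peak, while Borcs7 with a 76.2-fold peak lies at 1.11 and Tgfbrap1 with a 73.1-fold peak near 0.

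Of 14 genes for lysosomal membrane proteins and hydrolases, 0 were called at 24 h of RNA-seq, where 0 had an unadjusted p under 0.05 and DESeq2 called 0, 2 were higher at 48 h, and 8 were higher at 72 h, with medians of 0.02, 0.37 and 0.82 beside all-gene medians of 0.02, 0.01 and 0.02. Of all genes, 2.32%, 10.5% and 13.7% were called higher at these times. The 8 included Ctsd, the aspartic protease cathepsin D (1.38 ± 0.05), and Hexa, a hexosaminidase subunit, at 114 and 119 CPM in DMSO and 223 and 230 at 72 h (0.96 ± 0.05). None of the 14 was called lower in RNA-seq. After RA, 3 of 14 were higher, against 9.1% of all genes, and the interaction was called higher for 8 of 14, against 13.7%. In TT-seq, 1 of 14 was called, Cd63, which fell by 0.75 at 24 h (against 4.25% of all genes called lower) and carries the 5.54-fold peak that lies nearest to Bloc1s1. Of the melanosome cargo list, 1 of 6 genes, Pmel, passed the filter on low counts. It was called lower with RA in DMSO (−2.59), higher after RA under depletion (1.15) and higher in the interaction (1.97), while Tyr and Dct had no read in any RNA-seq library before RA.

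Across all 24 libraries, the genes whose levels followed Snapin most closely were H2afy, a macroH2A histone (Pearson r = 0.973), Map2k6, a MAP kinase kinase (0.971), Lars, a leucyl-tRNA synthetase (0.969), Uqcr10, a respiratory complex III subunit (0.969), and Med16, a Mediator subunit (0.965). The measure was log2(CPM + 1) relative to the DMSO mean of the same experiment, over 8828 genes with a mean count of at least 100 in each table, to which Snapin was added as the query although its own TT-seq mean was lower. The points share libraries and the same DMSO and dTAG contrast, so r is a description. All 5 genes had ZFP143 promoter peaks, as did 18.7% of the 8828 ranked genes, but they were picked for following the depletion change of Snapin, so nothing is read from that count. Their RNA-seq changes at 72 h were −2.75, −4.02, −2.05, −4.19 and −3.28. By Spearman's rho, 1 of the 5 (H2afy) stayed among the closest 5. Among the members, r was −0.417 for Bloc1s5, −0.475 for Bloc1s6, −0.639 for Bloc1s2 and −0.686 for Dtnbp1. Bloc1s1, Bloc1s3 and Bloc1s4 were below the count limit and were not ranked. Of the BORC-only genes ranked, Kxd1 reached 0.572 and Borcs8 0.169. These r also follow the depletion change of Snapin, which was part of the choice, so nothing about the complex is read from them.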

How the data were processed

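The authors deposited read counts per gene, 1 table per experiment, and peak lists with fold enrichment and −log10 q. TT-seq reads were aligned with STAR 2.7.9a to mm10, deduplicated with Picard 2.25.6 after filtering with SAMtools 1.12, split by strand and counted with htseq-count 0.13.5 over GENCODE vM25 genes, with reads in overlapping genes counted for each. RNA-seq counts came from STAR, with the strand column not given in the sources used here. The deposited peaks were called by MACS2 2.2.6 against input, 1 list per factor, so the fold enrichment and −log10 q values have no replicates, and the CTCF list pooled DMSO and dTAG-V1 samples. Of 55401 gene IDs, 55141 were found in the annotation used here for names, positions and lengths, whose release (GENCODE vM21) is older, so lengths per kb are approximate. No pair of libraries held identical values.

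The members and lists were chosen with earlier results of these data known. From the deposited counts, genes with more than 10 reads in at least 4 of 8 libraries of a table were kept, 17870 in TT-seq, 13925 in RNA-seq and 15915 in the RA experiment, and all 4 groups of a table entered 1 fit in edgeR 4.0.16 (R 4.3.3, limma 3.58.1) after TMM scaling. The biological coefficient of variation was 17.2%, 3.65% and 5.92%. The SE is the log2 change divided by the square root of its F statistic. The study describes its replicates as biological, and p-values measure the spread between 2 of them in 1 edited line. The edgeR fit was also run on simulated counts for TT-seq and RNA-seq, an outcome not given here. DESeq2 1.42.0 served as an alternative, since the authors used DESeq2, as did other scalings, no filter, the other assay's thresholds, a replicate block and leaving out each library. All 8 members, Zfp143 and the 5 genes most like Snapin are named, and of the lists the extremes and genes called alike in at least 2 of the 3 experiments. Other bound or singly called list genes were named after their values were seen. Peak positions and motifs were read from mm10. Promoter windows held the 250 bp before and the 50 bp after a start, taken from RefSeq (GRCm38.p6) for 6 members and from GENCODE for Snapin and Bloc1s6. The 31 base matrix was built from 523 core sites in ZFP143 peaks other than that of Snapin, and was chosen after the data were seen. Other assays of the series were not used here.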

Additional observations from a re-analysis of the deposited data

Results flagged for a closer look

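The step from before to after RA differed between dTAG and DMSO for 3 members, by the test of the difference itself. The interaction was 0.60 for Bloc1s2, 0.53 for Bloc1s3 and −0.66 for Bloc1s6 (log2, edgeR quasi-likelihood test, adjusted p = 0.0015, 0.019 and 0.00053). Over all genes, 18% were called lower and 13.7% higher in that test. The medium changed together with RA and depletion went from 24 h to 48 h, so these cannot be told apart. Without RA, the depletion change in RNA-seq went from 0.38 at 24 h to 1.17 at 48 h for Bloc1s2, from −0.03 to 0.05 for Bloc1s3 and from 0.19 to 0.83 for Bloc1s6. Marker sums also moved. The 4 fibroblast markers (Col1a1, Col1a2, Thy1 and Lum, 3 of them above 10 reads with RA) summed to 3.89 to 4.02 CPM in dTAG and 25.9 to 26.1 CPM in dTAG with RA, against 6.52 to 10.3 CPM in DMSO with RA, with Lum at 0 in 3 of the 4 groups. The 5 primitive endoderm markers, all above 10 reads with RA, summed to 7.73 to 10.0 CPM in dTAG and 51.9 to 54.8 CPM in dTAG with RA, against 30.0 to 31.7 CPM in DMSO with RA. The 3 mesoderm markers summed to 1.97 to 2.47, 7.90 to 8.68 and 4.45 to 4.50 CPM in the same groups. Their part in the result was not tested.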

How the results depend on the processing

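Of the 7 members other than Snapin, the number called was recomputed under each alternative. At 48 h of RNA-seq it went from 2 to 1 with DESeq2 and with no filter on low counts, and lay between 1 and 2 when each library was left out. At 72 h it went from 1 to 2 with library size alone and to 3 with the other assay's thresholds. Before RA it went from 0 to 1 with the other thresholds, and after RA it lay between 0 and 1 with each library left out. The RA effect in DMSO went from 2 to 1 with DESeq2 and with library size alone, went to 3 with the other thresholds, and lay between 1 and 2 with each library left out. The RA effect under dTAG went from 0 to 2 with library size alone and to 4 with the other thresholds. The interaction went from 3 to 0 with the other thresholds and lay between 2 and 4 with each library left out. The causes were not tested, except that the other thresholds are looser for RNA-seq and stricter for the interaction by construction. The Spearman list shared 1 of 5 genes, and Snapin's DMSO level became 20.8 CPM per kb in RNA-seq and 20.3 in the RA experiment with library size alone. The remaining 102 of 122 such values stayed within 1.5 times of the reported count, or within 1 SD of the reported level, and no called direction reversed.

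In the labels, replicates share only a number, with 2 pairs in each experiment and no label that ties a number to a batch. Same-numbered libraries deviated together in TT-seq (r between 0.193 and 0.631) but not in RNA-seq (between −0.042 and 0.062) or the RA experiment (between −0.099 and 0.125). With the replicate block, the genes called over the whole table went from 453 to 749, from 591 to 1318 and from 1119 to 2232 in TT-seq (lower from 423 to 658, 522 to 976 and 760 to 1232, higher from 30 to 91, 69 to 342 and 359 to 1000), and the number of members called remained 0, 0 and 0 there and 2 and 1 at 48 and 72 h of RNA-seq. A left-out library leaves a group of 1, assumed to vary like the others.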
